A study of Mus musculus with 20 samples.

Results

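T lymphocytes and natural killer (NK) cells in inguinal white adipose tissue (iWAT) and brown adipose tissue (BAT) were followed through 10 genes that mark them or carry out their killing function. The genes are Cd3d, Cd3e, Cd4, Cd8a, Nkg7, Gzma, Gzmb, Prf1, Klrd1 and Ifng, which were taken by name from the 25219 genes of the deposited table. The table holds 20 libraries, 5 for each of 4 groups: Control iWAT, Ai-α4KO iWAT, Control BAT and Ai-α4KO BAT. In Ai-α4KO mice α4, the product of Igbp1 and a regulatory partner of type 2A protein phosphatases, was deleted in adipocytes by an Adiponectin-CreERT2 transgene, so lymphocytes were not the cells targeted. Control mice carried the floxed alleles without the transgene, although the labels give their genotype as WT. All mice were males on a mixed (C57Bl/6) background, all received tamoxifen at 100 mg/kg in 5 injections over 6 days from 2 months of age, and RNA was taken 1 week after recombination. Libraries are called by the number in their labels, which do not say whether a number stands for the same mouse in both tissues or whether libraries came from separate mice. The p-values below therefore measure the spread between these libraries.

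T cells recognise antigen through a receptor whose signal passes through the CD3 chains. CD4 and CD8 are its coreceptors on helper and cytotoxic T cells. NK cells lack that receptor and read surface receptors of the lectin-like Klr family instead, and both NK cells and cytotoxic T cells kill by releasing perforin and granzymes from granules and secrete interferon gamma. In adipose tissue these lymphocytes are a minority beside macrophages and are known to shift in number and kind when the tissue becomes inflamed.

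Positions are those of RefSeq on GRCm38.p6, the assembly that mm10 represents. Cd3d (chr9:44981769-44987052) and Cd3e (chr9:44998735-45009663) are neighbours on chromosome 9. Cd4 (chr6:124864693-124888247), Cd8a (chr6:71373427-71379171) and Klrd1 (chr6:129588092-129598775) lie apart from each other on chromosome 6. Prf1 (chr10:61297751-61304684) and Ifng (chr10:118441046-118445894) are both on chromosome 10, Nkg7 is at chr7:43437138-43438246, Gzma at chr13:113093824-113100981 and Gzmb at chr14:56258836-56262334. RefSeq promoter sequence was at hand for 8 of the 10 genes, all but Cd4 and Klrd1. The 250 bases before the start that RefSeq's promoter table gives are printed for the granzyme genes, which were higher in Ai-α4KO libraries of both tissues, and for Cd3d and Cd3e, neighbours that encode chains of 1 complex. Capitals mark the letters TGTGGT of the RUNX motif and GGAAGT of the ETS motif on either strand, so ACCACA and ACTTCC are the same motifs read on the other strand. The Gzma window is chr13:113100982-113101231 on the minus strand and the Gzmb window chr14:56262335-56262584 on the minus strand. The Cd3d window is chr9:44981536-44981785 on the plus strand and the Cd3e window chr9:45009612-45009861 on the minus strand.
Gzma: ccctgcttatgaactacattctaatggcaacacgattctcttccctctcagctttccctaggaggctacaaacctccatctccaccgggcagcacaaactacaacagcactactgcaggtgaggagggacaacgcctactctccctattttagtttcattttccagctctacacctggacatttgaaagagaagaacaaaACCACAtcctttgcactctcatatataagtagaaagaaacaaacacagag
Gzmb: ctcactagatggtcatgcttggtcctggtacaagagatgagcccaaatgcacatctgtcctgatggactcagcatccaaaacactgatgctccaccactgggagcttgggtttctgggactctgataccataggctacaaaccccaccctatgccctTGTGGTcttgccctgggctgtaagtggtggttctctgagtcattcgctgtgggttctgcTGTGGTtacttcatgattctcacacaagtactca
Cd3d: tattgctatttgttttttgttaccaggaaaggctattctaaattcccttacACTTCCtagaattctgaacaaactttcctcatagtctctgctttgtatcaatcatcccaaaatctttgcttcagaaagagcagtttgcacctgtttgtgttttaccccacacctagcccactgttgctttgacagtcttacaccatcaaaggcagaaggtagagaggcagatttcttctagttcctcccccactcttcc
Cd3e: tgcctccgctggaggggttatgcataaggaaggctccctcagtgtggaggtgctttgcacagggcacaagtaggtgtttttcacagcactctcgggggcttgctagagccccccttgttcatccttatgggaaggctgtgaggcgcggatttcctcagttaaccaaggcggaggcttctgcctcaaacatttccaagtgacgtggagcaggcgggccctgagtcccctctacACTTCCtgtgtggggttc
The Gzma and Gzmb windows end where the RefSeq gene span begins, while 17 bases of the Cd3d window and 52 of the Cd3e window, at their 3′ ends, lie within the gene span given above. The granzyme windows each hold the RUNX letters, Gzmb at 2 places, and no ETS letters. The Cd3d and Cd3e windows each hold the ETS letters at 1 place and no RUNX letters, and in Cd3e these letters lie 18 to 13 bases before the window's end, inside the gene span. Over the 8 genes, TGTGGT was in the window of 4 (Nkg7, Gzma, Gzmb and Prf1, the granule genes) against 14% of the 32851 RefSeq windows of this length, and GGAAGT in 3 (Cd3d, Cd3e and Prf1) against 19.7%. The Prf1 window shares 85 bases with its gene span, and its matches lie outside them. The T-box letters GGTGTGA were found in Nkg7 alone, against 3.33% of all windows. No 2 of the motifs overlapped in any of the 8 windows, and a match describes letters only.

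Igbp1 separated the genotypes in each tissue, at 57.5 to 76.6 CPM in Control and 10.1 to 11.1 CPM in Ai-α4KO iWAT libraries and at 85.4 to 105.0 and 13.7 to 25.2 CPM in BAT. Library 4 of Ai-α4KO BAT was the one at 25.2 CPM, and the other 4 were at 13.7 to 17.4 CPM. CPM is the count scaled to the library's total after TMM normalization over all 20 libraries, whose totals ran from 24023371 to 50384446 counts. Library 1 and library 4 of Control iWAT stood apart. The sum of 10 B cell and lymph node genes (among them Ms4a1, Cd79a, Cd79b, Cr2, Pax5 and Glycam1) was 597 and 244 CPM in them and 7.30 to 9.02 CPM in the other 3 Control iWAT libraries, here as CPM without normalization factors. It was 7.58 to 18.9 CPM in Ai-α4KO iWAT, 1.37 to 4.61 CPM in Control BAT and 3.88 to 9.60 CPM in Ai-α4KO BAT, where Glycam1, made by the high endothelial venules of lymph nodes, was at 0 in 3 of 5 libraries. The full list of 12 markers, which includes Cxcl13 and Cd22, separated the BAT genotypes, at 12.4 CPM at most in Control and 51.7 CPM at least in Ai-α4KO libraries. The iWAT fold changes of the 10 genes and the iWAT list counts are therefore given with all libraries and without those 2 Control libraries. In BAT skeletal muscle genes moved with genotype, with a sum of 797 to 8495 CPM in Control and 11682 to 37750 CPM in Ai-α4KO libraries, the highest in library 4. In iWAT the same sum was 6292 CPM in Control library 4 and 4852 CPM in Ai-α4KO library 1, against 14.3 to 161 CPM in the other Control and 4.08 to 101 CPM in the other Ai-α4KO libraries, so Control library 4 stood apart in muscle genes as well. The median log2 fold change of the 6 muscle genes in iWAT was -0.46 with all libraries and 3.80 without Control libraries 1 and 4, and 0 of 6 were called in either. The part of muscle in the results was not tested.

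**Figure D1:**
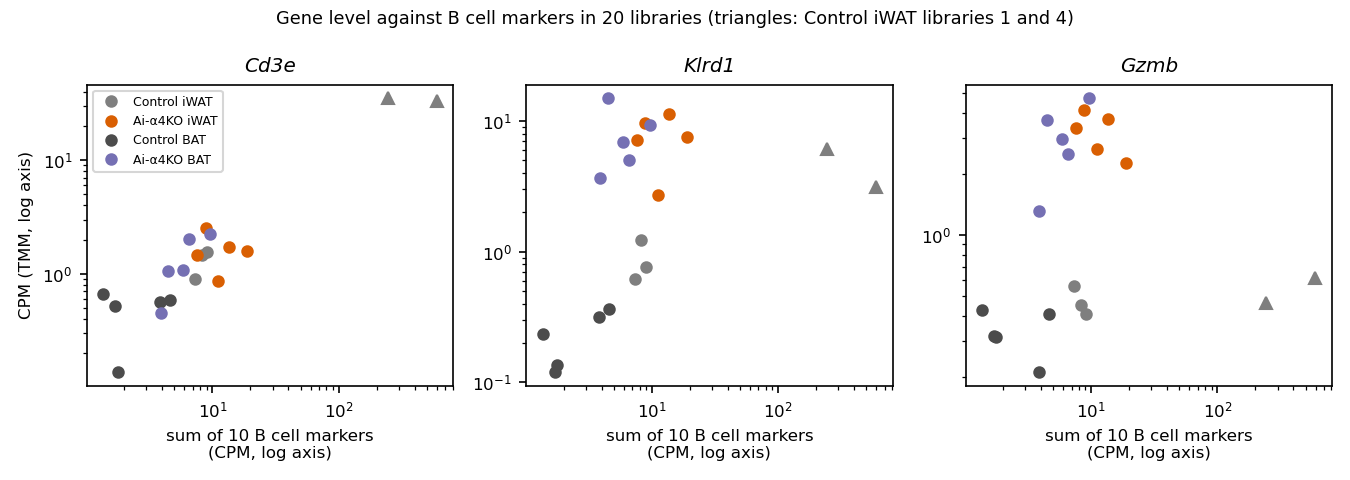
Level of Cd3e, Klrd1 and Gzmb in each of the 20 libraries (CPM, y axis, log scale) against the summed level of 10 B cell and lymph node genes (CPM, x axis, log scale), with triangles for Control iWAT libraries 1 and 4. The triangles lie at 244 and 597 on the x axis, above every other library for Cd3e, within the Ai-α4KO range for Klrd1 and among the Control libraries for Gzmb.

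Of the genes of the T cell receptor complex, Cd3d, which encodes CD3 delta, was higher in Ai-α4KO BAT. It was at 0.819, 0.587, 0.408, 0.670 and 0.478 CPM in Control BAT libraries 1 to 5 and at 2.82, 3.42, 3.77, 0.869 and 5.24 CPM in Ai-α4KO BAT. Every Ai-α4KO library was above every Control library, library 4 by the least. The log2 fold change was 2.40 (SE 0.42, adjusted p = 3.82e-04, edgeR, Benjamini-Hochberg over all genes tested), or 5.29-fold. It fell short of the call in 1 fit of all 20 libraries (2.43, adjusted p = 0.0260). A gene was called at an adjusted p below 0.01 and a change of at least 2-fold. Control iWAT libraries 1 to 5 held Cd3d at 34.9, 1.49, 1.35, 44.4 and 1.03 CPM, and Ai-α4KO iWAT libraries at 1.66, 7.20, 4.2, 3.33 and 3.06 CPM. Libraries 1 and 4 of Control were above all others, while the remaining 3 were below all 5 Ai-α4KO libraries. With all libraries the log2 fold change was -2.11 (SE 1.02, adjusted p = 0.103), and without the 2 it was 1.51 (SE 0.44, adjusted p = 0.0171), so Cd3d was not called in iWAT in either fit and its sign turned with those libraries. With the summed level of the 12 B cell and lymph node markers as a covariate and all libraries it was called lower in iWAT, at -2.36 (adjusted p = 8.77e-04). With the marker sum without Cxcl13 and Cd22, a covariate chosen after seeing the data, its log2 fold change was positive.

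Cd3e, which encodes CD3 epsilon, was not called in the main edgeR fit of either tissue (TMM, all its libraries, no covariate). Its levels were 0.592, 0.665, 0.136, 0.564 and 0.518 CPM in Control BAT and 1.08, 2.03, 1.06, 0.451 and 2.25 CPM in Ai-α4KO BAT. Library 4 of Ai-α4KO lay within the Control range and the other 4 above it. The log2 fold change of 1.43 (SE 0.47, adjusted p = 0.0191) was not called with all libraries. It was called by DESeq2 (1.48, adjusted p = 0.00656) and was 1.71 (adjusted p = 0.00405) without Ai-α4KO BAT library 4. The iWAT levels were 32.9, 0.901, 1.46, 35.1 and 1.55 CPM in Control and 0.857, 2.55, 1.71, 1.45 and 1.58 CPM in Ai-α4KO. Apart from the 2 high Control libraries the genotypes overlapped. The log2 fold change was -3.15 (SE 1.02, adjusted p = 0.0215) with all libraries and 0.23 (SE 0.37, adjusted p = 0.619) without the 2. With the 12-marker sum as a covariate it was called lower, at -3.30 (adjusted p = 8.33e-05). Leaving out Control iWAT library 2 alone gave -3.45 (adjusted p = 0.00963), a fit in which libraries 1 and 4 remained.

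Cd4, the coreceptor of helper T cells that some dendritic cells also carry, was called higher in Ai-α4KO BAT. Control BAT libraries were at 1.0, 0.978, 0.725, 1.13 and 1.08 CPM and Ai-α4KO BAT libraries at 12.4, 36.1, 11.1, 9.85 and 36 CPM. The groups were separated by a wide gap, with libraries 2 and 5 of Ai-α4KO the highest. Cd4 had a log2 fold change of 4.38 (SE 0.45, adjusted p = 5.01e-06), or 20.8-fold. In iWAT the Control levels were 36.4, 1.83, 2.10, 21.3 and 1.52 CPM, and the Ai-α4KO levels 6.06, 27.0, 22.2, 20.2 and 8.77 CPM. Control libraries 1 and 4 lay in or above the Ai-α4KO range and the other 3 below it. In iWAT the log2 fold change was 0.40 (SE 0.86, adjusted p = 0.715) with all libraries and 3.13 (SE 0.51, adjusted p = 7.71e-04), or 8.72-fold, without the 2.

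Cd8a, the alpha chain of the coreceptor of cytotoxic T cells, was at 0.774, 0.196, 0.408, 0.670 and 0.319 CPM in Control BAT and 1.65, 2.33, 0.974, 0.322 and 3.2 CPM in Ai-α4KO BAT. Library 4 of Ai-α4KO again lay among the Controls. Cd8a had a log2 fold change of 1.80 (SE 0.56, adjusted p = 0.0142), not called, and 2.12 (adjusted p = 0.00178) without that library, the one with the highest Igbp1 and muscle gene levels of its group. In iWAT the levels of 27.3, 2.11, 0.826, 38.0 and 1.14 CPM in Control overlapped the 0.886, 3.74, 2.0, 1.29 and 2.46 CPM of Ai-α4KO once the 2 high libraries were set aside. The log2 fold change was -2.75 (SE 1.02, adjusted p = 0.0389) with them and 0.52 (SE 0.50, adjusted p = 0.402) without them. With the 12-marker sum as a covariate Cd8a was called lower, at -3.07 (adjusted p = 4.95e-04). With the marker sum without Cxcl13 and Cd22, chosen after seeing the data, Cd8a was not called and its log2 fold change was positive.

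**Figure D2:**
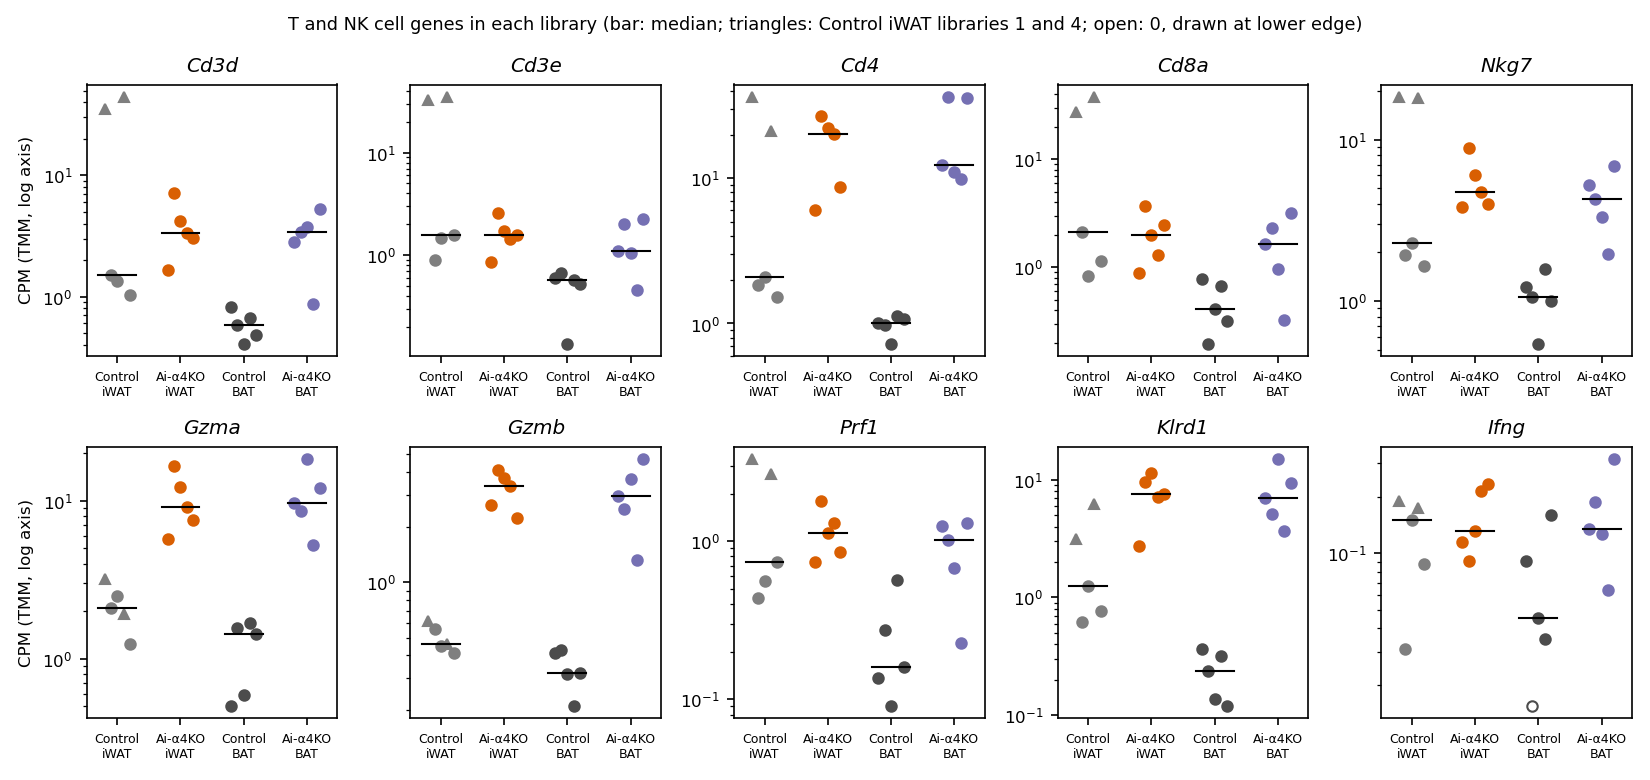
Level of each of the 10 genes in all 20 libraries (CPM, y axis, log scale, its own range in each panel) by tissue and genotype, with a bar at the group median, triangles for Control iWAT libraries 1 and 4 and an open circle for a library at 0. The triangles lie above all other libraries of iWAT for Cd3d, Cd3e, Cd8a, Nkg7 and Prf1, and Gzma and Gzmb separate the genotypes in both tissues with all libraries.

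Klrd1 encodes CD94, which pairs with NKG2 receptors on NK cells and some cytotoxic T cells, and it had the largest fold change of the 9 genes tested in BAT. Its levels were 0.364, 0.235, 0.136, 0.317 and 0.119 CPM in Control BAT, which are 3 to 9 counts a library and mostly under the filter's level, and 6.94, 5.08, 15, 3.70 and 9.31 CPM in Ai-α4KO BAT. The lowest Ai-α4KO library stood well above the highest Control library. Its log2 fold change was 5.03 (SE 0.47, adjusted p = 2.41e-06), or 32.7-fold. Control iWAT held 3.11, 0.621, 1.24, 6.16 and 0.762 CPM and Ai-α4KO iWAT 2.71, 9.62, 11.3, 7.16 and 7.60 CPM. Control libraries 1 and 4 were above the lowest Ai-α4KO library, and the other 3 were below all of them. Klrd1 was not called in iWAT with all libraries, at a log2 fold change of 1.68 (SE 0.62, adjusted p = 0.0389), and was called without the 2, at 3.05 (SE 0.48, adjusted p = 5.79e-04). Leaving out Control library 4 alone was enough, at 2.40 (adjusted p = 0.00422).

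The granzymes Gzma and Gzmb, serine proteases of the cytotoxic granule, were called higher in Ai-α4KO in both tissues with and without the 2 libraries. Gzma was at 3.22, 2.08, 2.48, 1.91 and 1.23 CPM in Control iWAT and 5.77, 16.8, 12.3, 9.15 and 7.57 CPM in Ai-α4KO iWAT. The genotypes did not overlap, and the 2 Control libraries high in B cell genes were not set apart. Its log2 fold change was 2.23 (SE 0.33, adjusted p = 2.01e-04) in iWAT and 2.34 (SE 0.39, adjusted p = 8.97e-04) without the 2. In BAT Gzma went from 0.501, 1.56, 0.589, 1.69 and 1.43 CPM in Control to 9.65, 8.58, 18.4, 5.25 and 12.0 CPM in Ai-α4KO, a log2 fold change of 3.17 (SE 0.41, adjusted p = 3.69e-05).

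Gzmb was called in the same comparisons. Control iWAT libraries were at 0.614, 0.559, 0.451, 0.463 and 0.410 CPM and Ai-α4KO iWAT libraries at 2.66, 4.12, 3.70, 3.37 and 2.26 CPM. Within each genotype the libraries lay close together, libraries 1 and 4 of Control included. Gzmb had a log2 fold change of 2.67 (SE 0.25, adjusted p = 9.29e-06) and stayed at 2.67 (SE 0.31, adjusted p = 1.03e-04) without the 2. In BAT the levels were 0.410, 0.430, 0.317, 0.212 and 0.319 CPM in Control and 2.96, 2.51, 3.68, 1.32 and 4.71 CPM in Ai-α4KO, a log2 fold change of 3.13 (SE 0.37, adjusted p = 1.80e-05). The Control BAT levels are 6 to 11 counts a library, and Gzmb passed the low-count filter in BAT through its Ai-α4KO levels.

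Nkg7 encodes a membrane protein of the cytotoxic granule. Control BAT libraries held 1.23, 1.06, 0.544, 1.59 and 0.995 CPM and Ai-α4KO BAT libraries 5.23, 4.31, 3.30, 1.96 and 6.89 CPM. No Ai-α4KO library overlapped Control, and the log2 fold change was 1.96 (SE 0.36, adjusted p = 5.37e-04). Control iWAT was at 18.4, 1.93, 2.29, 18.1 and 1.64 CPM and Ai-α4KO iWAT at 3.83, 8.84, 6.01, 4.76 and 3.97 CPM. The 2 Control libraries were above and the other 3 below all Ai-α4KO libraries. Its log2 fold change was -0.64 (SE 0.69, adjusted p = 0.460) with them and 1.41 (SE 0.32, adjusted p = 0.00494) without them.

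Prf1, which encodes the pore-forming perforin, was counted at 2 to 16 reads in the Control BAT libraries. These were 0.137, 0.274, 0.0906, 0.564 and 0.159 CPM, against 1.25, 1.02, 0.677, 0.225 and 1.30 CPM in Ai-α4KO BAT. Library 4 of Ai-α4KO lay below libraries 2 and 4 of Control, and the other 4 lay above all Control libraries. Prf1 had a log2 fold change of 1.78 (SE 0.55, adjusted p = 0.0134), not called, and leaving out either library 4 brought a call, at 2.35 (adjusted p = 0.00403) without that of Control and 2.08 (adjusted p = 0.00264) without that of Ai-α4KO. In iWAT Prf1 was at 3.30, 0.435, 0.563, 2.66 and 0.733 CPM in Control and 0.743, 1.80, 1.13, 1.31 and 0.856 CPM in Ai-α4KO. The log2 fold change of -0.41 (SE 0.56, adjusted p = 0.556) became 0.93 (SE 0.38, adjusted p = 0.0636) without the 2 high libraries.

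Ifng, the gene of interferon gamma, was near the limit of detection. It had 0 to 4 counts in Control BAT libraries, 2 to 9 in Ai-α4KO BAT, 1 to 9 in Control iWAT and 4 to 12 in Ai-α4KO iWAT. The highest level of any library was 0.316 CPM. Control BAT library 2 held 0 counts, which allows up to 0.117 CPM (3 counts, counting error only). The filter on low counts removed Ifng in both tissues, so it was not tested by edgeR. Its log2 CPM differed by 0.88 between the BAT genotypes (exact permutation test, two-sided, p = 0.0635) and by 0.26 in iWAT (p = 0.492, exact). Without Control iWAT libraries 1 and 4 the iWAT difference was 0.57 (p = 0.161, exact). No difference was detected.

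Counted together, 6 of the 9 genes tested were called higher in Ai-α4KO BAT (Cd3d, Cd4, Nkg7, Gzma, Gzmb and Klrd1) and 0 lower, where 18.2% of the 14344 genes tested were called higher and 13.3% lower. DESeq2 called all 9 higher, as did edgeR without normalization factors, at an adjusted p below 0.05 or without Ai-α4KO BAT library 4, where 19.6%, 22.7%, 19.9% and 18.2% of all genes were called higher. In iWAT 2 of 9 were called higher (Gzma and Gzmb) with all libraries and 0 lower, against 11.3% and 10.7% of 14604 genes. DESeq2 also called Klrd1 higher (1.66, adjusted p = 0.00660) and Cd3e lower (-3.16, adjusted p = 0.00350), where it called 11.5% of genes higher and 12.3% lower. With the 12-marker sum as a covariate 3 of 9 were called lower in iWAT, against 9.62% of genes. That sum was higher in every Ai-α4KO iWAT library than in the 3 Control libraries low in B cell genes. With the sum of 10 markers, a covariate chosen after seeing the data, 4 of 9 were called higher in iWAT, against 13% of genes. Cd3d, Cd8a, Nkg7 and Prf1 changed direction in that fit. Without the 2 Control libraries 5 of 9 were called higher (Cd4, Nkg7, Gzma, Gzmb and Klrd1), and 0 lower, against 11.9% and 11.8% of 14822 genes. In iWAT all 9 reached the level of the low-count filter, 0.291 CPM, in the Control libraries themselves. In BAT, where a gene needed 0.340 CPM in 5 libraries, Cd3d, Cd4, Nkg7 and Gzma did so in Control, and these 4 were all called higher, against 14.6% of the 13059 genes that did. Cd3e, Gzmb and Klrd1 reached it in the Ai-α4KO libraries only and Cd8a and Prf1 in the genotypes together, so that the BAT count and median of the 9 rest partly on the filter. The median log2 fold change of the 9 genes was 2.40 in BAT, -0.41 in iWAT and 1.51 in iWAT without the 2, and that of all genes tested was -0.03, 0.01 and -0.0037. The Ai-α4KO libraries lay above all Control libraries for 6 of the 10 genes in BAT, as for 24.7% of all genes tested there. The same held for 2 of 10 in iWAT against 20.7% of genes, and for 7 of 10 without the 2 against 27.9%. These 7 are Cd3d, Cd4, Nkg7, Gzma, Gzmb, Prf1 and Klrd1. In BAT full separation of 5 libraries against 5 fixes the exact permutation p of log2 CPM (two-sided) at its smallest value, 0.00794. For the 6 separated genes this unadjusted p restates the separation and adds no support. With the summed level of the 12 B cell and lymph node markers as a covariate, which does not overlap between the BAT genotypes, 0 of 9 genes were called in BAT, where 0.251% of genes were still called higher. With the sum of 10 markers in its place, a covariate chosen after seeing the data, 4 were called higher, against 15.4% of genes, and Cd3d (1.5, adjusted p = 0.0497) and Nkg7 (1.03, adjusted p = 0.0768) were not. In RNA of whole tissue, fewer cells of a type and less RNA per cell cannot be told apart.

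**Figure D3:**
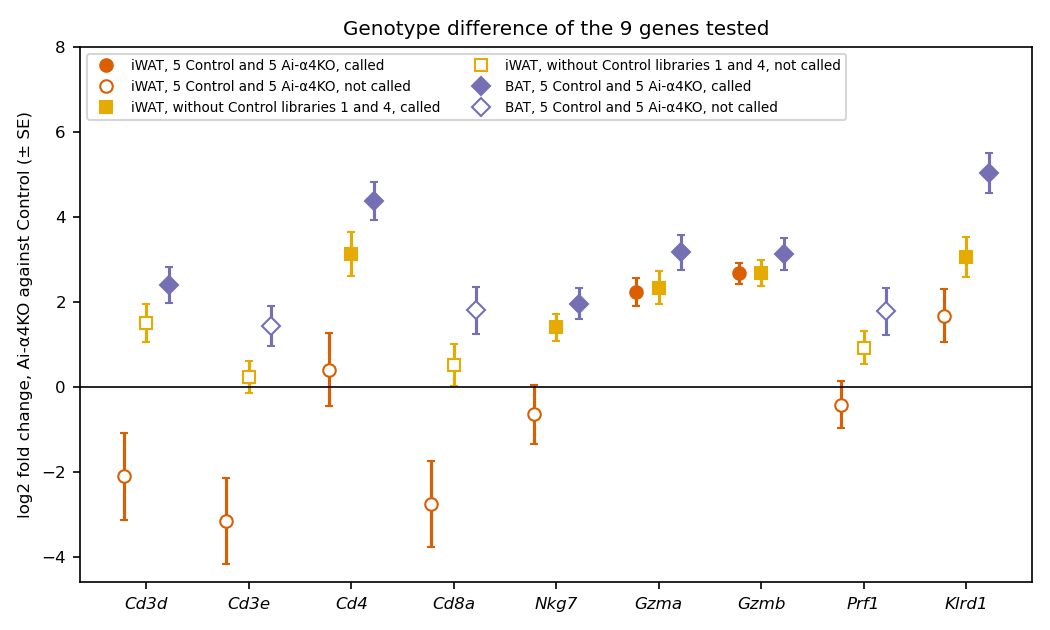
Log2 fold change of Ai-α4KO against Control with its standard error (y axis) for the 9 genes tested (x axis) in iWAT, in iWAT without Control libraries 1 and 4, and in BAT, with filled symbols for called genes. Gzma and Gzmb are filled in all 3 comparisons, and Cd3d, Cd3e, Cd8a, Nkg7 and Prf1 lie below 0 with all iWAT libraries and above 0 in the other 2 comparisons.

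An interaction term of genotype with tissue, fitted to the 20 libraries together, asked whether BAT and iWAT differed in their response. The BAT log2 fold change minus that of iWAT was above 0 for each of the 9 genes, from 0.48 (SE 0.42) for Gzmb to 4.60 (SE 1.20) for Cd3e. For Cd3d, Cd3e, Cd8a, Nkg7 and Prf1 the fold changes had opposite signs, above 0 in BAT and below 0 in iWAT. None was called at an adjusted p below 0.01 by edgeR (0.0120 to 0.454), where 4.86% of genes were called, although 7 of 9 had an unadjusted p below 0.05 and DESeq2 called 6, with 10.8% of genes. The number called depended on single Control iWAT libraries, rising to 2 without library 2 and to 4 without library 3 or library 5, fits in which 4.42%, 5.53% and 4.23% of genes were called. Without the 2 high libraries 0 of 9 were called, against 3.1% of genes, 1 had an unadjusted p below 0.05, and the adjusted p ran from 0.0612 to 0.547. The 1 was Klrd1, whose log2 fold change was above that of iWAT by 2.05 (SE 0.66).

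Between the Control tissues, 7 of 9 genes were called lower in BAT than in iWAT with all libraries, against 15.4% of genes. These were all but Gzma, at -0.91 (SE 0.39, adjusted p = 0.0602), and Gzmb, at -0.57 (SE 0.32, adjusted p = 0.140). Cd3e, at -4.85 (SE 0.94, adjusted p = 2.66e-04), and Cd8a, at -4.87 (SE 0.99, adjusted p = 4.26e-04), had the largest differences. Without the 2 libraries only Klrd1 was called lower, at -1.87 (SE 0.54, adjusted p = 0.00991), against 12.5% of genes, and Cd3e was at -1.39 (SE 0.49, adjusted p = 0.0272). The signs were negative for all 9 genes in both fits.

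Levels of different genes were compared per transcript length, as the median FPKM of each group. In Control BAT the order was Gzma 1.30, Nkg7 0.977, Cd3d 0.326, Cd3e 0.315, Cd4 0.254, Klrd1 0.20, Gzmb 0.180, Cd8a 0.0986, Prf1 0.0619 and Ifng 0.0284 FPKM. In Ai-α4KO BAT it was Gzma 10.4, Klrd1 7.61, Nkg7 5.09, Cd4 3.79, Cd3d 2.47, Gzmb 1.98, Cd3e 0.717, Cd8a 0.502, Prf1 0.476 and Ifng 0.107 FPKM. Neighbours in these orders overlapped in their library ranges, except Nkg7 and Cd3d in Control BAT. The Ai-α4KO iWAT order was close to that of Ai-α4KO BAT, from Gzma at 10.2 and Klrd1 at 8.60 FPKM down to Prf1 at 0.529 and Ifng at 0.105 FPKM, with Cd4 at 6.39 above Nkg7 at 5.74 FPKM, and only Prf1 and Ifng among neighbours did not overlap. The Control iWAT order began with Nkg7 at 2.27, Gzma at 2.18 and Klrd1 at 1.15 FPKM, and its wide ranges come from libraries 1 and 4.

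Ratios of FPKM within a library do not depend on how the library was scaled, and 6 ratios were compared between genotypes in each tissue after the values had been seen (exact permutation test of the log2 ratio, two-sided, adjusted by Benjamini-Hochberg over the 12). Cd4 relative to Cd3e was 0.281 to 0.944 in Control iWAT and 2.57 to 6.46 in Ai-α4KO iWAT. The 2 high Control libraries had ratios of 0.281 and 0.512, within or below those of the other 3. In BAT the ratio was 0.682 to 2.47 in Control and 4.84 to 10.1 in Ai-α4KO. The Control BAT libraries held 3 to 17 counts of Cd3e and 3 to 9 of Klrd1. The ratio of 2.47 was that of library 3, which held 3 Cd3e counts. In both tissues the genotypes were separated in Cd4 relative to Cd3e (exact adjusted p = 0.0159). Klrd1 relative to Cd3e was separated as well, at 0.157 to 1.40 against 5.25 to 11 in iWAT and 0.383 to 1.66 against 4.15 to 23.5 in BAT (exact adjusted p = 0.0159 each). In iWAT its 2 lowest Control ratios, 0.157 and 0.291, were those of libraries 1 and 4, and the other 3 were at 0.813 to 1.40. Cd8a relative to Cd3e overlapped in both tissues, with a mean log2 difference of 0.30 in iWAT (exact adjusted p = 0.562) and 0.19 in BAT (exact adjusted p = 0.754). Cd3d relative to Cd3e was higher in Ai-α4KO iWAT by 1.09 on the log2 scale (exact adjusted p = 0.0159), and its difference of 0.82 in BAT did not pass (exact adjusted p = 0.0952). Among granule genes, Gzma relative to Prf1 was higher by 2.19 in iWAT (exact adjusted p = 0.0159) and 1.34 in BAT (exact adjusted p = 0.0408). In Control iWAT this ratio was 1.68 and 2.28 in libraries 1 and 4 and 3.93 to 11.2 in the other 3, against 16.4 to 25.6 in Ai-α4KO. Without the 2 libraries, a comparison added after seeing the data, Gzma relative to Prf1 was higher by 1.40, Klrd1 relative to Cd3e by 2.78, Cd4 relative to Cd3e by 2.73 and Cd3d relative to Cd3e by 1.18 in iWAT. Each had an exact adjusted p of 0.0268 over the 6 ratios, from an unadjusted 0.0179, the smallest that 3 libraries against 5 can give. With all libraries Gzma relative to Gzmb differed by -0.46 in iWAT (exact adjusted p = 0.106) and 0.19 in BAT (exact adjusted p = 0.754).

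**Figure D4:**
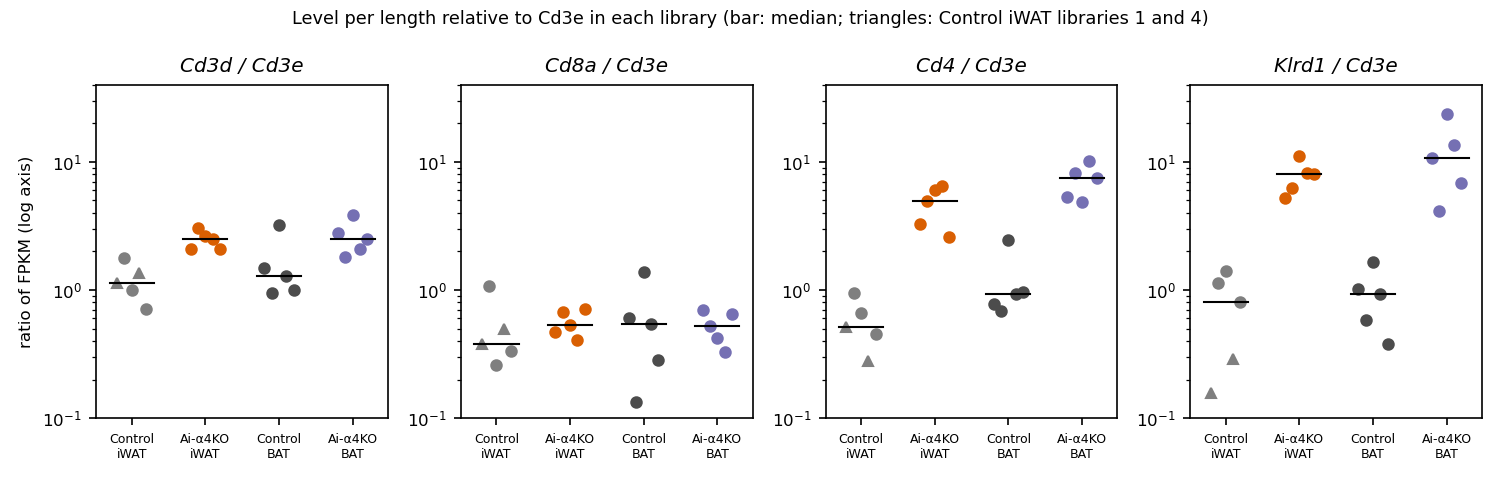
Ratio of the FPKM of Cd3d, Cd8a, Cd4 and Klrd1 to that of Cd3e (y axis, log scale) in each of the 20 libraries by tissue and genotype, with a bar at the group median and triangles for Control iWAT libraries 1 and 4. The Cd4 and Klrd1 ratios are higher in every Ai-α4KO library than in any Control library of the same tissue, and the Cd8a ratio overlaps.

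Genes that leukocytes of all kinds share were compared as a group. The sum of 6 pan-leukocyte genes (Ptprc, Cd53, Laptm5, Coro1a, Arhgdib and Hcls1) was 68.2 to 117 CPM in Control and 745 to 1195 CPM in Ai-α4KO BAT, and 338 to 997 CPM in Control and 1430 to 2032 CPM in Ai-α4KO iWAT. Of them, 6 of 6 were called higher in BAT, 5 of 6 in iWAT and 6 of 6 in iWAT without the 2. The genes were therefore also tested with the summed count of these 6 as the library size, a scaling that moved the median log2 fold change of all genes to -3.61 in BAT and -1.86 in iWAT (-2.21 without the 2). On that scale most genes of the tissue were called lower in Ai-α4KO libraries, 91% in BAT, 80.1% in iWAT and 83.7% in iWAT without the 2, and the shares of the 9 genes called lower stayed under these backgrounds. Klrd1 was the only gene of the 9 called higher in BAT, at 1.44 (SE 0.43, adjusted p = 0.00328), where 0.941% of genes were called higher. It had been tested because of its level in the Ai-α4KO libraries, since its Control libraries did not reach the filter's 0.340 CPM in all 5. Klrd1 lost the call without Control BAT library 5 (1.30, adjusted p = 0.0112) or Ai-α4KO BAT library 3 (1.17, adjusted p = 0.0129). Called lower in BAT were 5 of 9: Cd3e at -2.18 (SE 0.45), Cd8a at -1.83 (SE 0.51), Prf1 at -1.71 (SE 0.51), Nkg7 at -1.61 (SE 0.35) and Cd3d at -1.25 (SE 0.40). The call of Cd3d was lost without any of 4 libraries (Control BAT 1, Ai-α4KO BAT 1, 2 and 4), at -1.26 to -1.04. That of Cd8a was lost without Control BAT library 1, at -1.51, and that of Prf1 without Control BAT library 4, at -1.33. Cd4, at 0.75 (SE 0.37, adjusted p = 0.0553), Gzma, at -0.40 (SE 0.35), and Gzmb, at -0.52 (SE 0.41), were not called.

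In iWAT the same 5 genes were called lower per leukocyte read with all libraries, from -4.31 (SE 0.61) for Cd3e to -1.82 (SE 0.50) for Prf1, and 2 of 9 without the 2, Cd3e at -1.99 (SE 0.36, adjusted p = 3.65e-04) and Cd8a at -1.71 (SE 0.46, adjusted p = 0.00489). Per 1000 pan-leukocyte reads Cd3e was at 33.0, 2.52, 4.33, 48.1 and 4.39 in Control iWAT and 0.600, 1.51, 0.840, 0.907 and 0.825 in Ai-α4KO iWAT. All 5 Ai-α4KO libraries were below all Control libraries, also when the 2 high ones are passed over. For Cd4 the counts per 1000 were 5.13, 6.22 and 4.31 in Control libraries 2, 3 and 5 and 4.24 to 16.0 in Ai-α4KO iWAT, with overlap.

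**Figure D5:**
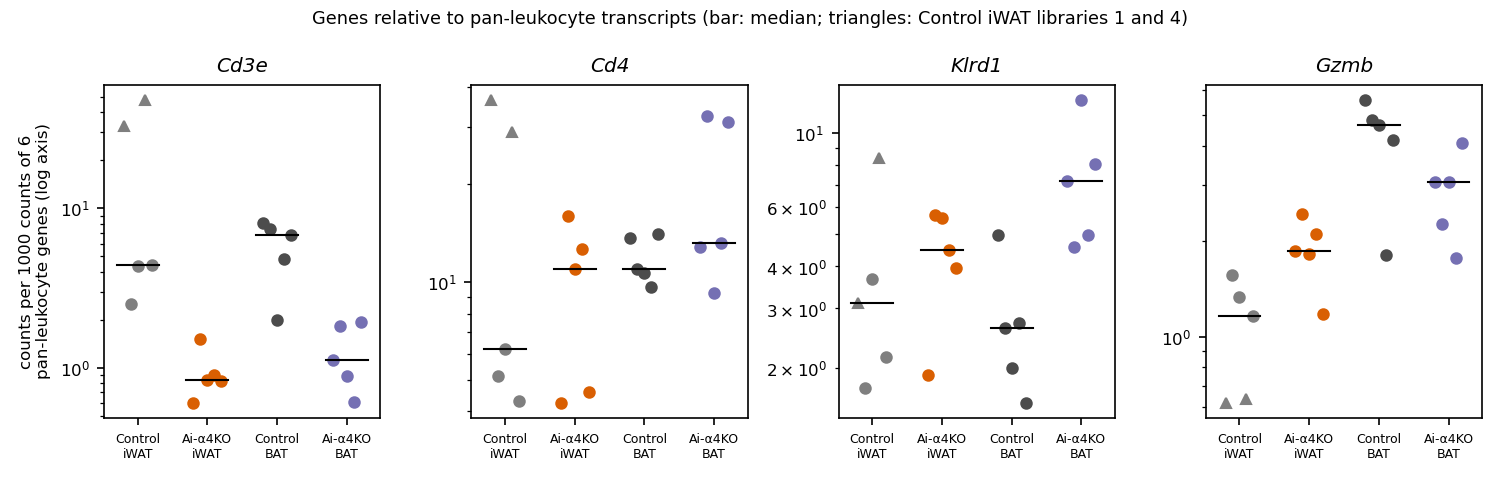
Counts of Cd3e, Cd4, Klrd1 and Gzmb per 1000 counts of 6 pan-leukocyte genes (y axis, log scale) in each of the 20 libraries by tissue and genotype, with a bar at the group median and triangles for Control iWAT libraries 1 and 4. Cd3e is lower in every Ai-α4KO library than in any Control library of the same tissue, and Gzmb overlaps between genotypes in BAT.

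Other genes of these cells were read from lists, beside 18.2% of all genes tested called higher in BAT, 11.3% in iWAT and 11.9% in iWAT without the 2, and the medians of all genes given above. A list gene that did not reach the low-count filter's level in the Control libraries was tested because of its level in Ai-α4KO libraries. The counts and medians over tested genes are therefore descriptions, and the genes that reached the level in Control libraries alone are counted beside them. Of 13 further NK receptor genes, 9 of 9 tested were called higher in Ai-α4KO BAT (median log2 fold change 3.18), 9 of 12 in iWAT (median 2.11) and 9 of 13 without the 2 libraries (median 2.15), with 0 lower in each. Only 2 of the 9 in BAT (Klrb1c and Il2rb, both called higher) reached the filter's level in Control, and 4 of the 13 were not tested there. In iWAT 8 did, of which 7 were called higher with all libraries and without the 2. Klre1, a partner of other Klr receptors, was at 4.48 (SE 0.58) in BAT and 2.48 (SE 0.49) in iWAT. Klrc1, the NKG2A chain that pairs with CD94, was at 3.79 (SE 0.56) and 2.14 (SE 0.42), although reads of the near-identical Klrc2 could be split with it. Cd226, an activating receptor that T cells and other leukocytes also carry, was at 3.19 (SE 0.49) and 3.39 (SE 0.34), and Klrk1, which encodes NKG2D, at 2.94 (SE 0.36) and 2.23 (SE 0.31). All 4 were tested in BAT through their Ai-α4KO levels, as was Klre1 in iWAT. They kept their iWAT call without the 2, at 2.72 (SE 0.62), 2.19 (SE 0.55), 3.38 (SE 0.41) and 2.57 (SE 0.31) in the same order. The summed level of the 13 was 2.95 to 8.47 CPM in Control and 22.6 to 68.2 CPM in Ai-α4KO BAT, and 12.6 to 32.4 against 46.6 to 106 CPM in iWAT, where all Control libraries stayed below all Ai-α4KO libraries.

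Of 11 further genes listed for the T cell receptor and its coreceptors, 7 are in the table. In BAT 4 of 6 tested were called higher (median 1.96), in iWAT 0 of 7 with all libraries (median -1.95) and 2 of 7 without the 2 (median 1.36). In Control 3 of the 6 reached the filter's level in BAT, with 2 called higher, and 5 of the 7 in iWAT, with 0 and 2 called higher. Cd2, an adhesion receptor of T and NK cells, was at 2.46 (SE 0.31) in BAT and 2.19 (SE 0.36) in iWAT without the 2, against 0.35 (SE 0.66, adjusted p = 0.677) with them. Cd3g was at 1.80 (SE 0.40) in BAT and 1.36 (SE 0.38, adjusted p = 0.0129) in iWAT without the 2, and Cd8b1, the beta chain of CD8, at 2.21 (SE 0.43) and 0.58 (SE 0.50, adjusted p = 0.351). With all iWAT libraries these were at -1.90 (SE 0.95, adjusted p = 0.112) for Cd3g and -3.39 (SE 1.16, adjusted p = 0.0275) for Cd8b1. Of the receptor's signaling genes, 6 of 8 were called higher in BAT (median 2.30), 2 of 11 in iWAT (median -1.62) and 4 of 11 without the 2 (median 1.41). Those that reached the level in Control were 3 in BAT, all called higher, and 8 in iWAT, of which 2 were called higher with all libraries and 4 without the 2. The 2 called in iWAT with all libraries were the adaptor Lcp2, at 2.58 (SE 0.16), and the phosphatase Ptpn22, at 1.72 (SE 0.42), or 2.73 (SE 0.14) and 2.52 (SE 0.33) without the 2, and both are also expressed in myeloid cells.

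Transcription factors of T and NK cells were called higher for 4 and lower for 1 of 7 in BAT, where 13.3% of all genes were lower. In iWAT 0 were higher and 2 lower of 10, against 10.7% of genes lower, and without the 2 libraries 3 were higher and 2 lower of 10, against 11.8%. All 4 called higher in BAT were tested through their Ai-α4KO levels, and of the 3 that reached the filter's level in Control 0 were higher and 1 lower. In iWAT 8 reached it, with 0 higher and 2 lower, and 2 and 2 without the 2. Eomes, a T-box factor of NK and cytotoxic T cells, was at 3.25 (SE 0.47) in BAT and 2.77 (SE 0.41) in iWAT without the 2, and Runx3 at 3.22 (SE 0.46) and 2.53 (SE 0.48). With all iWAT libraries neither was called, Eomes at 1.18 (SE 0.60, adjusted p = 0.114) and Runx3 at 0.66 (SE 0.70, adjusted p = 0.448). Zbtb16, a factor of innate-like T cells that is not restricted to them, was lower in iWAT at -1.70 (SE 0.26), or -1.96 (SE 0.25) without the 2, and had -1.22 (SE 0.47, adjusted p = 0.0391) in BAT. Among homing and survival genes Il7r, at 3.87 (SE 0.24), and Ccr7, at 3.78 (SE 0.52), were called higher in BAT, and S1pr1, which endothelial cells express strongly, was lower at -1.14 (SE 0.19), and in all 3 of 5 were higher and 1 lower, or 2 and 1 of the 4 that reached the level in Control. In iWAT 0 of the 5 was called with all libraries and 3 were higher without the 2. Regulatory and checkpoint genes were called higher for 6 of 11 in BAT, among them Pdcd1 at 4.08 (SE 0.59) and Cd69 at 3.89 (SE 0.48). Of the 4 that reached the level in Control, 0 were called, so all 6 were tested because of their Ai-α4KO levels. In iWAT none of 13 was called higher and 1 lower with all libraries, and 3 higher and 1 lower without the 2, the lower gene being Lag3 at -1.56 (SE 0.19) with all and -1.40 (SE 0.19) without the 2. Of the 8 that reached the level in Control iWAT, 0 were higher with all libraries and 1 without the 2.

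Of the other granule and death ligand genes, 6 of 9 tested were called higher in BAT (median 1.37), 2 of 10 in iWAT (median 0.42) and 4 of 10 without the 2 (median 1.39). In Control 7 reached the filter's level in BAT, of which 4 were called higher, and 9 in iWAT, of which 2 and 4 were. Stx11, a protein of granule release, was at 4.18 (SE 0.23) in BAT and 2.85 (SE 0.25) in iWAT, and Srgn, the granule proteoglycan that many leukocytes make, at 1.37 (SE 0.19) and 2.13 (SE 0.18). Without the 2 these stood at 3.15 (SE 0.21) and 2.18 (SE 0.21) in iWAT. Cst7, a protease inhibitor of NK cells and of activated myeloid cells, was at 4.05 (SE 0.36) in BAT and 0.20 (SE 0.57, adjusted p = 0.790) in iWAT, where it was called without the 2, at 1.61 (SE 0.37, adjusted p = 0.00541). Lymphocyte chemokines and their receptors were called higher for 8 of 8 in BAT (median 3.91), 4 of 8 in iWAT (median 2.13) and 6 of 8 without the 2 (median 3.03). Those that reached the level in Control were 3 in BAT, all called higher, 5 in iWAT, of which 1 was, and 6 in iWAT without the 2, of which 4 were. Ccl5 was at 5.37 (SE 0.46) in BAT, 2.69 (SE 0.97, adjusted p = 0.0351) in iWAT and 6.02 (SE 0.44) without the 2.

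Around interferon gamma, the genes that induce it were called higher for 7 of 8 and lower for 1 in BAT (median 2.55), 4 of 9 higher in iWAT (median 1.08) and 6 of 9 without the 2 (median 2.02). In Control 4 reached the level in BAT, with 3 higher and 1 lower, and 6 in iWAT, with 3 higher in both fits. Il18rap, a receptor chain for interleukin 18, was at 4.57 (SE 0.36) in BAT and 3.13 (SE 0.35) in iWAT, the cytokine Il18 at 3.86 (SE 0.30) and 2.39 (SE 0.31) (3.48, SE 0.40, and 2.22, SE 0.40, in iWAT without the 2), and Il15ra was lower in BAT at -1.36 (SE 0.16). The receptor and target genes were called higher for 5 of 12 in BAT (median 0.71), 3 of 11 in iWAT (median 1.0) and 5 of 11 without the 2 (median 0.95). In BAT 10 of the 12 reached the level in Control, with 4 called higher, and in iWAT all 11 did. Cxcl10, a chemokine that other interferons and inflammatory signals also induce, was at 4.61 (SE 0.56) in BAT and 7.38 (SE 0.25) in iWAT, and Gbp2 at 1.78 (SE 0.26) and 1.80 (SE 0.18). Without the 2 they were at 7.42 (SE 0.33) and 1.70 (SE 0.18) in iWAT. Cxcl9, named after its values were seen, was at 0.10 (SE 0.30, adjusted p = 0.783) in BAT and 0.24 (SE 0.20, adjusted p = 0.323) in iWAT, or 0.21 (SE 0.20, adjusted p = 0.405) without the 2.

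Markers of other leukocytes moved with genotype beside these genes. All 8 macrophage markers were called higher in both tissues with all libraries and 7 of 8 in iWAT without the 2, and their sum was 238 to 561 CPM in Control and 4350 to 7277 CPM in Ai-α4KO BAT. Neutrophil markers were called higher for 5 of 5 in BAT and 4 of 5 in iWAT, also without the 2. Dendritic cell markers were higher for 5 and lower for 1 of 6 in BAT and higher for 1 of 6 in iWAT (0 of 6 without the 2), and mast cell markers higher for 5 and lower for 1 of 6 in BAT and lower for 1 of 6 in iWAT, also without the 2. Adipocyte markers were lower for 6 of 8 in each tissue, and brown adipocyte markers for 2 of 6 in BAT and 5 of 6 in iWAT, and the iWAT counts of both were the same without the 2. Of the BAT counts, 2 of the 5 dendritic and 4 of the 5 mast cell genes called higher had reached the filter's level in Control, as had all macrophage and neutrophil genes. The part of these cells in the levels of the 10 genes was not tested.

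The genes whose library-to-library deviations from the group means were most like those of 3 members were listed over the 20 libraries, among genes on no list. For Cd3e these were Gimap3, Spib, Cd96, B4galnt1 and Tbc1d10c (Pearson r 0.948 to 0.955), and none of them was among the first 5 without the 2 libraries, where Pmaip1 came first at r = 0.891 over 18. For Klrd1 they were Birc5, Rps20, Ikzf1, Ms4a4b and Mis18a (r 0.883 to 0.897), of which Mis18a stayed among the first 5 over 18 libraries. For Gzmb they were Csf2, Gm13710, Insl6, Rbm47 and Clec4n (r 0.699 to 0.781), of which Csf2 and Gm13710 stayed. These values describe the same libraries that chose the genes.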

How the data were processed

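RNA-seq of 20 libraries (stranded mRNA, paired reads of 150 bp) was measured in 4 groups of 5, grouped by tissue and genotype as the labels give them. The authors deposited estimated counts per gene, not normalized, and FPKM values, which are scaled to transcript length and library total. The submitters' processing notes name bcl2fastq 2, STAR 2.5.3a and mm10, while the counting tool and annotation release are not given in the sources used here. Of the non-zero estimated counts 76.7% were whole, and all were rounded before testing.

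Genes passing filterByExpr were tested with edgeR 4.0.16 (TMM, glmQLFit and glmQLFTest, R 4.3.3) within each tissue, and in 1 fit of all groups for the interaction and for the Control tissues. A gene was called at a Benjamini-Hochberg adjusted p below 0.01 and at least 2-fold, the interaction without the fold. Single genes and FPKM ratios were compared by exact permutation tests over libraries. The SE given with an edgeR log2 fold change is that fold change's absolute value divided by the square root of its quasi-likelihood F statistic. Log2 CPM used a prior count of 2. The fits within each tissue, of the interaction and per leukocyte read were tested on simulated data at default settings, and the other steps were not.

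The 10 genes, the 20 gene lists (183 genes, 5 of them not in the table) and the tests were chosen with earlier results of these data known. All 10 genes are named. Other list genes were named as the highest in mean CPM or in absolute log2 fold change, at most 4 a list, and like genes by the highest 5 Pearson r. Some list genes enter the counts and sums and are not reported here by name. Alternatives were DESeq2 1.42.0, limma 3.58.1 on log2(FPKM + 1) or log2(FPKM + 0.1), other normalizations and filters, a replicate block, leaving out libraries, and marker sums as covariates. Positions and promoters are from RefSeq (GRCm38.p6). Depth was 24023371 to 50384446 counts a library, and intervals and floors cover counting error only.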

Additional observations from a re-analysis of the deposited data

Results flagged for a closer look

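The level of Cd3e in Control BAT library 3, 0.136 CPM, stood apart below the other 4 Control BAT libraries, which were at 0.518 to 0.665 CPM, by a gap larger than Dixon's critical value of 0.71 for 5 samples. It was 1 of 40 groups of libraries examined for the 10 genes, and chance alone gives about 1 in 20, or 2 groups.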

How the results depend on the processing

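Among the single-gene values, 1169 kept their direction and side of the threshold under the alternatives, 55 gained and 45 lost the call, and 41 changed direction. The cause was not tested. Counts of called genes are of 9.

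In iWAT, where 2 were called higher and 0 lower, DESeq2 and an adjusted p below 0.05 gave 3 higher, with Klrd1 (1.66 by DESeq2), and 1 and 2 lower. Of all genes 11.5% and 12.5% were higher in these fits and 12.3% and 12.4% lower. Called lower were 3 (Cd3d, Cd3e and Cd8a) with the sum of all 12 B cell markers as a covariate, against 9.62% of genes. A fit of all 20 libraries called 1 lower, against 11% of genes. Without the 2 Control libraries 5 were called higher, against 11.9% of genes. There Cd3d (1.51), Cd3e (0.23), Cd8a (0.52), Nkg7 (1.41) and Prf1 (0.93) changed direction. With the marker sum without Cxcl13 and Cd22, a covariate chosen after seeing the data, 4 were called higher, against 13% of genes. In that fit Cd3d (1.09), Cd8a (0.081), Nkg7 (1.17) and Prf1 (0.79) changed direction. Nkg7 was also above 0 in limma on log2(FPKM + 1) (0.11) and on log2(FPKM + 0.1) (0.24), as was Prf1 in the latter (0.056). Prf1 in the permutation test turned to 0.013 with a prior count of 0.5.

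In BAT, where 6 were called higher, 3 of the 3 left to test were with at least 10 counts in every library, against 15.6% of genes. A fit of all 20 libraries called 5 (without Cd3d), against 17.2% of genes. Limma on log2(FPKM + 0.1) called 7 (with Prf1), against 21.8% of genes. All 9 were called by DESeq2, without normalization factors and at an adjusted p below 0.05, against 19.6%, 22.7% and 19.9% of genes. The sum of 12 markers left 0 called, against 0.251% of genes, and put Cd3d at -0.42, Cd3e at -1.90, Cd8a at -1.66, Nkg7 at -0.29 and Prf1 at -2.19. The sum without Cxcl13 and Cd22 left 4 called (15.4% of genes), without Cd3d (1.5) and Nkg7 (1.03), and put Cd8a at -0.014.

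For the interaction, with 0 called, DESeq2 called 6, upper-quartile normalization 1 and an adjusted p below 0.05 gave 6. Of all genes 10.8%, 5.08% and 15.1% were called in these fits. The 12-marker sum put Cd3d at -0.13, Nkg7 at -0.16 and Prf1 at -0.014, and limma on log2(FPKM + 1) put Gzmb at -0.0016. Between Control tissues, with 7 called lower, 2 of 3 tested were with at least 10 counts, 1 without the 2 libraries, 0 with either marker sum and 1 in limma on log2(FPKM + 1). In the same order 12.8% and 12.5% of all genes were lower, 7.91% and 9.89% with the 12-marker and the shorter sum, and 8.52% in limma. The 12-marker sum turned Cd3d (1.08), Cd3e (0.75), Cd4 (1.04), Cd8a (0.61), Nkg7 (0.60) and Prf1 (0.23), and the shorter sum Cd3d (0.12), Cd4 (0.21) and Nkg7 (0.041).

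Per leukocyte read in iWAT, with 5 lower and 0 higher, 2 were lower without the 2 libraries (Cd4 0.89) and 3 with the shorter sum (Cd4 0.64), and 1 was higher with the 12-marker sum (Klrd1 -0.25). In the same order 83.7% and 83.9% of all genes were lower and 2.28% higher. Scaling by Ptprc put Klrd1 at -0.29. In BAT, with 1 higher and 5 lower, at least 10 counts gave 0 and 1 of 3 tested, the 12-marker sum 0 and 1 (Cd4 -0.53) and the shorter sum 0 higher (Gzma 0.0041). Of all genes 0.536% were higher and 95.1% lower with at least 10 counts. The 12-marker sum gave 0.342% and 54.8%, and the shorter sum 0.613% higher.

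Leaving out 1 library at a time gave 2 to 3 higher and 0 to 1 lower in iWAT, 6 to 9 higher in BAT, 0 to 4 for the interaction, 7 to 7 between Control tissues, 5 to 5 lower per leukocyte read in iWAT, and 0 to 1 higher and 3 to 5 lower in BAT. In these fits 9.87% to 11.8% of all genes were higher and 9.21% to 11.8% lower in iWAT. In BAT 16.6% to 18.2% were higher. For the interaction 3.07% to 6.63% were called, and between Control tissues 13.9% to 15.5% were lower. Per leukocyte read 74% to 82.7% were lower in iWAT, and 0.83% to 0.983% higher and 89.5% to 92.2% lower in BAT. Prf1 in iWAT ran from -0.65 to 0.030 and Klrd1 per leukocyte read in iWAT from -0.014 to 0.69. Libraries with the same number did not deviate together (r -0.45 to 0.24), so the number was not taken as a pairing. A replicate block put Nkg7 in iWAT at 0.17 and gave 1 interaction call, Klrd1 at 3.06, against 3.39% of genes. Depth limits Ifng most, with at most 12 counts in a library.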
